A study of Homo sapiens with 12 samples.

Results

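The zinc transporters and metallothioneins are the genes that set how much zinc enters, leaves and is bound within a cell. They were taken from the count table as every Ensembl ID that maps to a protein-coding gene named SLC30A or SLC39A with a number, MT1 with a letter, or MT2A. This gave 33 of the 63677 genes in the table: 10 of SLC30A, 14 of SLC39A and 9 metallothioneins. The rule uses gene names and types alone.

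RNA was sequenced from LNCaP, an androgen-sensitive human prostate cancer cell line, grown in medium that contained hormone. The 12 libraries formed 4 groups of 3: a pLPLUC vector control, USP22 overexpression, a control shRNA, and depletion of USP22 with 1 shRNA. For 5 days doxycycline (1 ug/mL, renewed every 48 hours) was given to both shRNA groups, the control included, and the labels name none for the other groups. USP22 is the ubiquitin protease of the SAGA coactivator complex, and each altered group was set against its own control. The depletion rests on a single hairpin, and whether the cells of a group are 1 clone or a pool is not given in the sources used here.

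Zinc cannot cross membranes unaided. SLC39A proteins (ZIP) carry it into the cytosol from outside the cell or from organelles, SLC30A proteins (ZnT) carry it out of the cytosol, and metallothioneins are small cysteine-rich proteins that bind zinc and copper. Excess zinc activates the transcription factor MTF1, which binds metal response elements in the promoters of metallothionein genes and of SLC30A1. The luminal epithelium of the normal prostate holds far more zinc than most tissues, which blocks mitochondrial aconitase so that citrate is secreted, and prostate tumours lose this zinc.

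The promoters of MT2A and MT1X, the metallothioneins with the most reads, and of MT1H, without reads, are printed to show their metal response cores. Each is the 250 bases before the RefSeq start on GRCh38.p14, plus strand, at chr16:56608334-56608583 for MT2A, chr16:56682220-56682469 for MT1X and chr16:56669564-56669813 for MT1H. Capitals mark the core letters TGCACNC or TGCGCNC on either strand, where the pair of motifs cannot start at the same base and matches were allowed to overlap.
MT2A: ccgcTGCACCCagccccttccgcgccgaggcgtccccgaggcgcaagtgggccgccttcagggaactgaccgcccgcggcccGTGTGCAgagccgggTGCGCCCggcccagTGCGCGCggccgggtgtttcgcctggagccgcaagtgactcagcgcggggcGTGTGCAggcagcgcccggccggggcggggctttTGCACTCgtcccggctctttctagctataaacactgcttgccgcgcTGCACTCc
MT1X: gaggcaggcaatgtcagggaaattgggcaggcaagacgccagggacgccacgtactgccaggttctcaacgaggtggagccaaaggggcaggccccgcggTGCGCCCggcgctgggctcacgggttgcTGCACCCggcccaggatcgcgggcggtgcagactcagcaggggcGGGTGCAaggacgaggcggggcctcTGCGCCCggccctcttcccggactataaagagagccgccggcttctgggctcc
MT1H: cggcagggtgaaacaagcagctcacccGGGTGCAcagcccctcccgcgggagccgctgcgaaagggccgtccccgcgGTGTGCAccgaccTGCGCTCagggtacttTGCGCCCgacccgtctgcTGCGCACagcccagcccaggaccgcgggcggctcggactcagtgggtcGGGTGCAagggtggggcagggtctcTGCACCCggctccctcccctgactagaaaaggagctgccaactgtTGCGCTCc
The core stood 7 times before MT2A, 4 times before MT1X, 8 times before MT1H and 3 times before MT1B. Of all 35116 promoters of this length, 24.8% held at least 1 core, 1.58% at least 3, 0.37% at least 4 and 0.0171% at least 8. In MT1X, MT1H and MT1B a match began 53 bases before the start, and in MT2A 54 bases before it. MT2A and MT1H also shared a match 8 bases before the start. Among the transporters, 5 of 11 SLC30A promoters and 14 of 19 SLC39A promoters had none of these letters. SLC30A2 held 3 cores, the most in either transporter family, SLC30A1 held 1 at 49 bases before its start, and no SLC39A promoter held more than 1. The table was matched for 25 of the 33 members, without MT1A, MT1E, MT1F, MT1G, MT1M, SLC30A8, SLC39A4 and SLC39A14. A match describes the letters and is no measure of binding.

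The libraries held 77607469 to 103690001 counted reads, so that 3 reads stand for 0.0269 to 0.0423 CPM, the reads of a gene scaled to a common library size. USP22 followed the labels, with mean CPM of 512.3 ± 45.9 in the vector control, 1466 ± 52.2 after overexpression, 477.4 ± 3.65 in the shRNA control and 257.5 ± 7.38 after depletion (SD, n = 3 each). All 9 luminal prostate markers were read at a mean of 1 CPM or more in every group, and 0 of 4 immune markers were, with a sum of 0.0625 to 0.205 CPM. Markers of other epithelial lines summed to 4.82 to 11 CPM, stromal markers to 10.2 to 18.3 and endothelial markers, nearly all of it VWF, to 6.63 to 14.7. Vector control replicate 3 stood apart: its log2 values spread by 0.297 (SD) around its group mates, against 0.132 to 0.197 in the other 11 libraries. Nothing in the labels tells whether a group's replicates came from different cultures, so a p-value here reflects only how far these libraries varied, and that variation may be technical. In bulk RNA, fewer cells of a type and less RNA per cell cannot be told apart.

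In the vector control, the highest levels per length were those of zinc importers and of SLC30A4, above every metallothionein. SLC39A6, a plasma membrane importer also known as LIV-1, had the highest level at 80.6 ± 6.97 CPM per kilobase (SD, n = 3), followed by SLC39A7, the importer that releases zinc from the endoplasmic reticulum, at 55.2 ± 9.51. SLC30A4, which loads zinc into vesicles, came next at 47.2 ± 7.53 CPM per kilobase, within the SD of SLC39A7. SLC39A9 and SLC39A1, both at 33.6 CPM per kilobase, could not be ordered. MT2A at 16.8 ± 2.07 CPM per kilobase lay within its SD of both SLC39A8 at 18.4 ± 2.01 and SLC30A5 at 16.1 ± 1.75, and these differed by more than either SD. MT1X at 9.09 ± 0.989 and SLC30A1 at 9.65 ± 2.38 lay within each other's spread. MT1G stood at 3.50 ± 0.660 CPM per kilobase and MT1F at 0.606 ± 0.124. These lengths are of all exons of a gene merged, so a gene read from 1 short transcript is set too low.

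**Figure D1:**
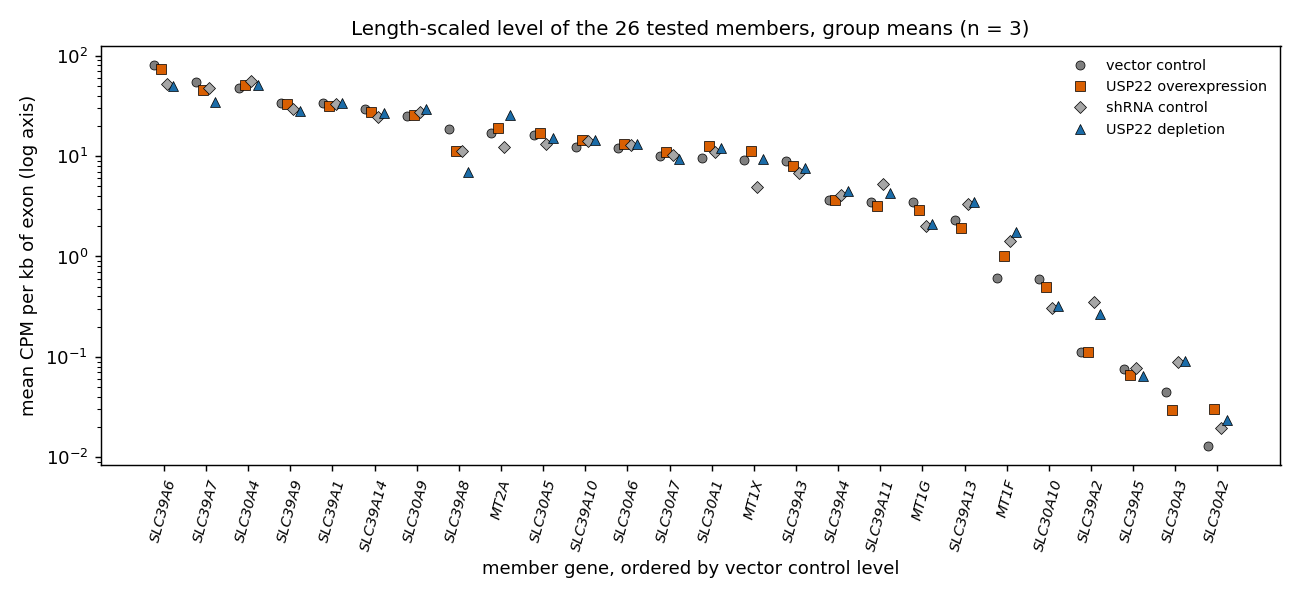
Level per length of each tested member in the 4 groups, in CPM per kilobase of merged exons on a log axis. Members are in the order of the vector control, and points show the mean of 3 libraries. SLC39A6 leads at 80.6 in the vector control, and MT2A at 16.8 is the highest metallothionein.

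Of the 33 members, 26 had enough reads to be tested: 9 of SLC30A, 13 of SLC39A and 4 metallothioneins. MT1A, MT1E, MT1H and MT1M had 0 reads in all 12 libraries, which allows up to 0.0269 to 0.0423 CPM a library by counting error alone, and MT1B had 1 read in all. The sources used here do not say how reads that map to several places were counted, and between 5.76% (MT1A) and 19% (MT1B) of the 50-base stretches in these 5 genes are also found in other genes. SLC30A8, the zinc transporter of insulin granules, had 13 reads over all libraries and SLC39A12 had 7.

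USP22 depletion came with higher RNA of the main metallothioneins and lower RNA of 3 importers. Overexpression came with lower RNA of 1 of the same importers and higher RNA of MT1F, a call lost in 4 alternatives. Calls are adjusted p-values under 0.05 by edgeR's quasi-likelihood test with Benjamini-Hochberg adjustment over 26076 genes. The share of all genes whose groups did not overlap was not counted, so a lack of overlap is description alone. On depletion 5 of 26 tested members were called, 2 higher and 3 lower, a share of 19.2%. Of all genes 19.8% were called on depletion, 9.4% higher and 10.4% lower, so the number of members called is near the background and is no result about the family as a whole. On overexpression 2 of 26 were called, 1 higher and 1 lower (7.69%), where 4.11% of all genes were called, 1.51% higher and 2.6% lower. The median log2 fold change of the members was 0.05 on depletion and -0.0034 on overexpression, beside 0.00024 and -0.0085 for all genes.

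No SLC30A exporter was called by edgeR, DESeq2 or voom on either comparison (0 of 9 each), though 2 on overexpression and 1 on depletion had an unadjusted p under 0.05. SLC39A had 3 of 13 called on depletion and 1 of 13 on overexpression. The metallothioneins had 2 of 4 on depletion and 1 of 4 on overexpression. Without vector control replicate 3 the standard errors of most members were smaller, though that of MT1F on overexpression was 0.18 against 0.17. In that setting 10 members were called on depletion, 3 of them SLC30A, and 4 on overexpression, where 31.1% and 6.85% of all genes were called.

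**Figure D2:**
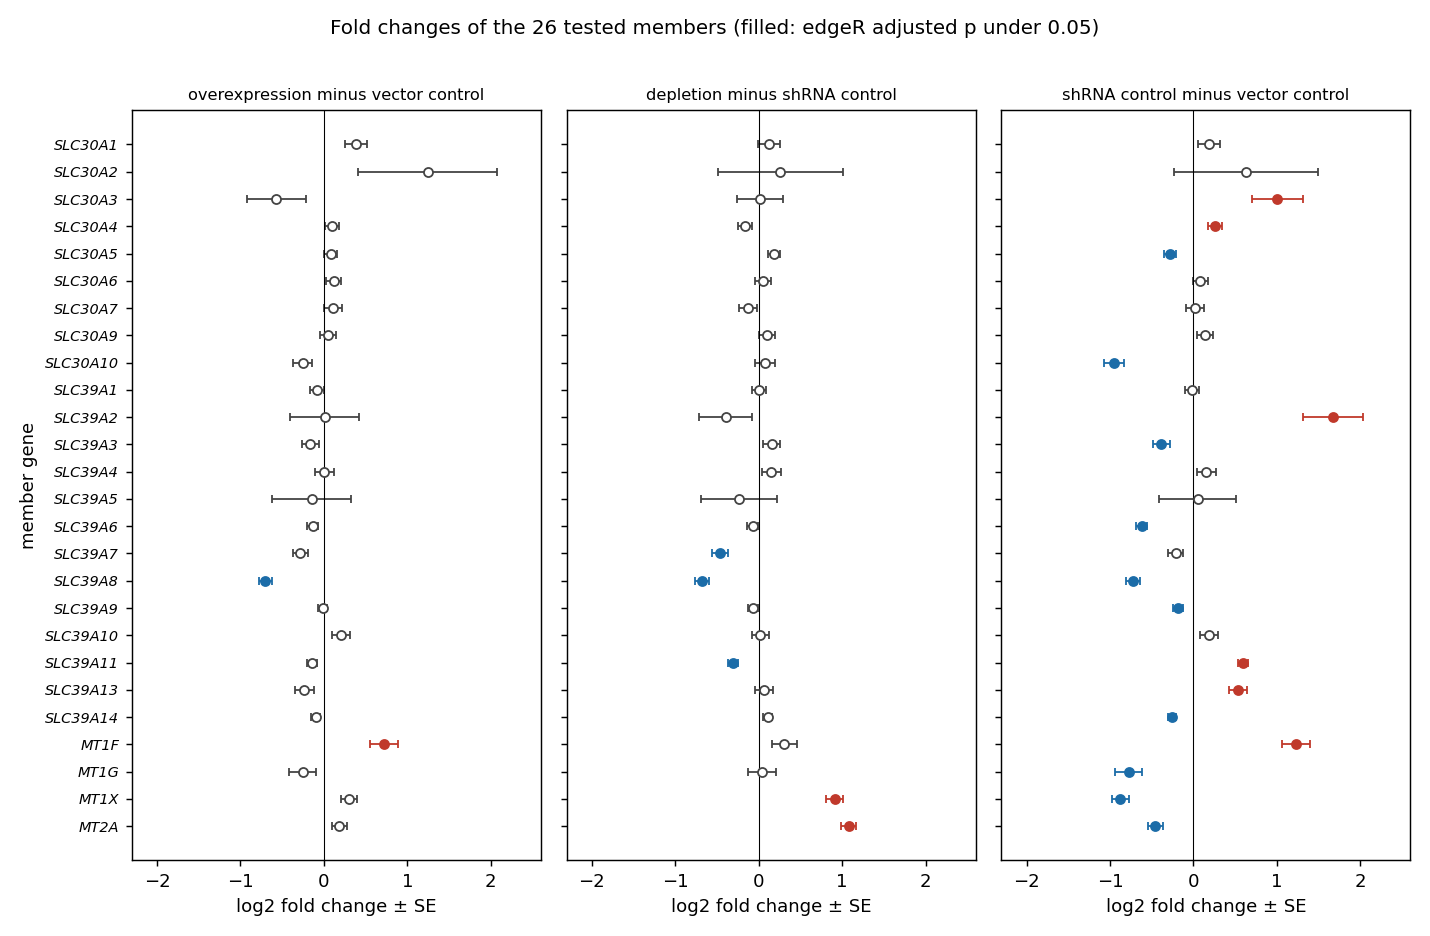
Log2 fold change of each tested member with its standard error. The panels show overexpression against the vector control, depletion against the shRNA control, and the shRNA control against the vector control. Filled points are called. MT2A and MT1X stand highest on depletion at 1.08 and 0.91. SLC39A8 is low in every panel, at -0.70, -0.68 and -0.72.

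MT2A (ENSG00000125148), in most cells the most abundant metallothionein, rose about 2-fold on depletion. The shRNA control libraries read 15.1, 16.2 and 16.5 CPM, and the depleted libraries 32.0, 37.4 and 31.4 CPM. Every depleted library lay above every other library of the study. The rise was 2.11-fold, a log2 fold change of 1.08 (SE 0.09, adjusted p = 4.8e-07 by edgeR).
The vector control libraries read 19.9, 20.8 and 24.9 CPM of MT2A, and the overexpression libraries 25.2, 23.8 and 25.8. These groups overlapped, and the log2 fold change of 0.19 (SE 0.09) missed the threshold (adjusted p = 0.278 by edgeR). Without vector control replicate 3, the highest of its group, it was 0.29 with adjusted p = 0.0126 by edgeR. MT2A also differed between the controls, lower in the shRNA control by a log2 fold change of -0.46 (SE 0.09, adjusted p = 6e-04 by edgeR), and that group is the base of the depletion comparison. Depleted libraries were above the vector control libraries too, so the order of the means ran from 15.9 ± 0.754 CPM in the shRNA control through 21.9 ± 2.69 and 24.9 ± 1.05 to 33.6 ± 3.28 on depletion.

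MT1X (ENSG00000187193), the second metallothionein by reads, rose on depletion from a low control. The shRNA control libraries read 7.46, 9.22 and 9.71 CPM and the depleted libraries 16.5, 16.9 and 16.1. The groups did not overlap, and the rise was 1.88-fold (log2 0.91, SE 0.10, adjusted p = 7.14e-06 by edgeR). The vector control libraries read 17.9, 16.1 and 14.4 CPM, so that depleted cells lay within the range of the vector control, unlike for MT2A. After overexpression the 3 libraries read 20.2, 18.6 and 20.6 CPM, all above the vector control. That difference, log2 0.30 (SE 0.10), missed the threshold with adjusted p = 0.105 by edgeR. It passed in 3 of the alternatives: without a filter on low counts (0.0147), with DESeq2 (0.0458) and without vector control replicate 1 (0.0473). MT1X was lower in the shRNA control than in the vector control by log2 -0.88 (SE 0.10, adjusted p = 2.57e-06 by edgeR). Of its exon bases 18.1% overlap another gene on the same strand, AC026461.1, and 18.3% of its stretches recur in other genes.

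The depletion effect on MT2A and MT1X exceeded that of overexpression. The overexpression effect minus the depletion effect was -0.89 for MT2A (SE 0.13, adjusted p = 0.000319 by edgeR) and -0.61 for MT1X (SE 0.14, adjusted p = 0.00906). They were the members called in this comparison, 0 of 26 higher and 2 of 26 lower, where 10.9% of all genes were called, 4.91% higher and 5.98% lower. Without vector control replicate 3, 4 of 26 members were called, the other pair being SLC39A7 and SLC39A14, a share of 15.4% where 19.8% of all genes were called. In both settings the low shRNA control enters the depletion effect.

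MT1F (ENSG00000198417), a lesser metallothionein of the same cluster, followed another course. It read 0.978, 1.41 and 1.04 CPM in the vector control and 1.65, 1.73 and 2.31 after overexpression. The groups did not overlap, and the rise was 1.65-fold (log2 0.72, SE 0.17, adjusted p = 0.025 by edgeR). The call was lost when only the libraries compared were fitted (adjusted p = 0.158), and without vector control replicate 1 (0.0724) or overexpression replicate 2 (0.051) or 3 (0.125), all by edgeR. The shRNA control libraries held 2.75, 2.80 and 2.53 CPM and the depleted libraries 2.94, 3.70 and 3.36. They did not overlap, but the difference of log2 0.31 (SE 0.15) missed the threshold (adjusted p = 0.18 by edgeR). It passed when only the libraries compared were fitted (adjusted p = 0.0468 by edgeR). Where MT2A, MT1X and MT1G were lower in the shRNA control than in the vector control, MT1F was higher, 2.34-fold (log2 1.23, SE 0.17, adjusted p = 1.64e-05 by edgeR).

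MT1G (ENSG00000125144) was called in neither USP22 comparison. The vector control libraries read 2.21, 2.49 and 3.17 CPM, and the overexpression libraries 2.29, 2.0 and 2.31. The shRNA control read 1.85, 1.35 and 1.36 CPM and the depleted cells 1.43, 1.78 and 1.5. Both pairs of groups overlapped, at log2 -0.25 (SE 0.16) on overexpression and 0.04 (SE 0.17) on depletion. Across the controls it was lower in the shRNA control, log2 -0.78 (SE 0.16, adjusted p = 0.00113 by edgeR).

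**Figure D3:**
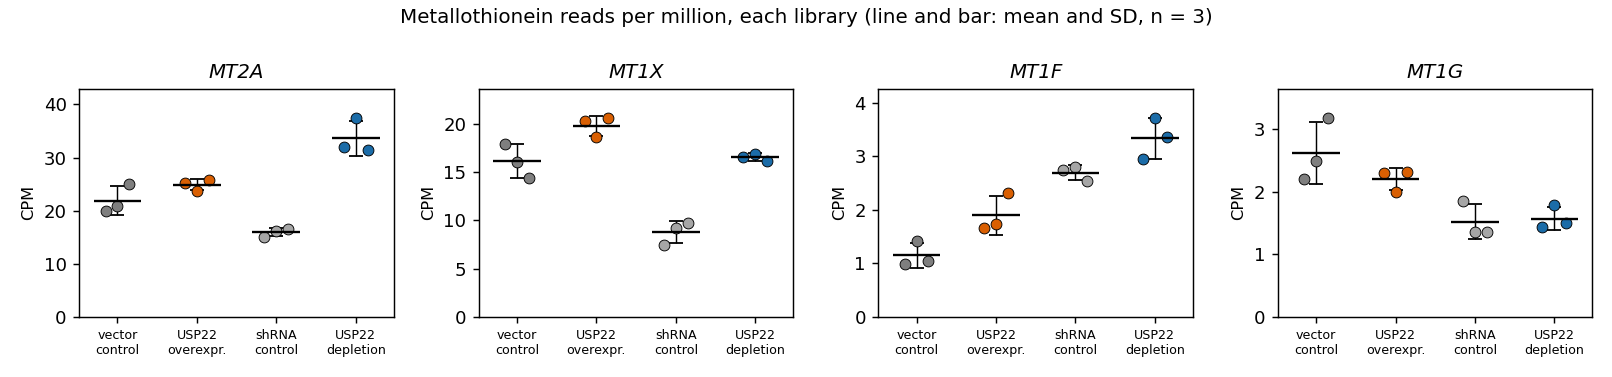
CPM of the 4 tested metallothioneins in each library; points are libraries, and lines and bars the mean and SD of 3. MT2A and MT1X are lowest in the shRNA control, at 15.9 and 8.80 CPM, and MT1F is lowest in the vector control, at 0.978 to 1.41 CPM.

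The 4 tested metallothioneins together summed to 41.8 ± 1.54 CPM in the vector control, 48.8 ± 2.48 after overexpression, 28.9 ± 1.59 in the shRNA control and 55.0 ± 4.13 after depletion (SD, n = 3 each). Each altered group lay above its own control in all 3 libraries: the vector control ended at 43.5 CPM where overexpression began at 46.1, and the shRNA control ended at 30.1 where depletion began at 52.3. The sum and its shares are described without a test. MT2A gave 59.9% to 62.5% of it in depleted cells and 54.7% to 55.5% in the shRNA control, against 48.5% to 57.3% in the vector control and 50.6% to 51.5% after overexpression. MT1X gave 33.0% to 43.7% in the vector control and 40.3% to 41.0% after overexpression, and 27.5% to 32.3% in the shRNA control and 28.3% to 31.2% after depletion, so each altered group lay within the range of its control.

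The genes lie next to each other on chromosome 16, with members that were read and members without reads interspersed. Of the members, MT2A stands at one end and MT1X at the other. Between them MT1E, MT1M and MT1A had no reads, MT1B had 1, MT1F and MT1G were read, and MT1H, next to MT1G, had none.

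**Figure D4:**
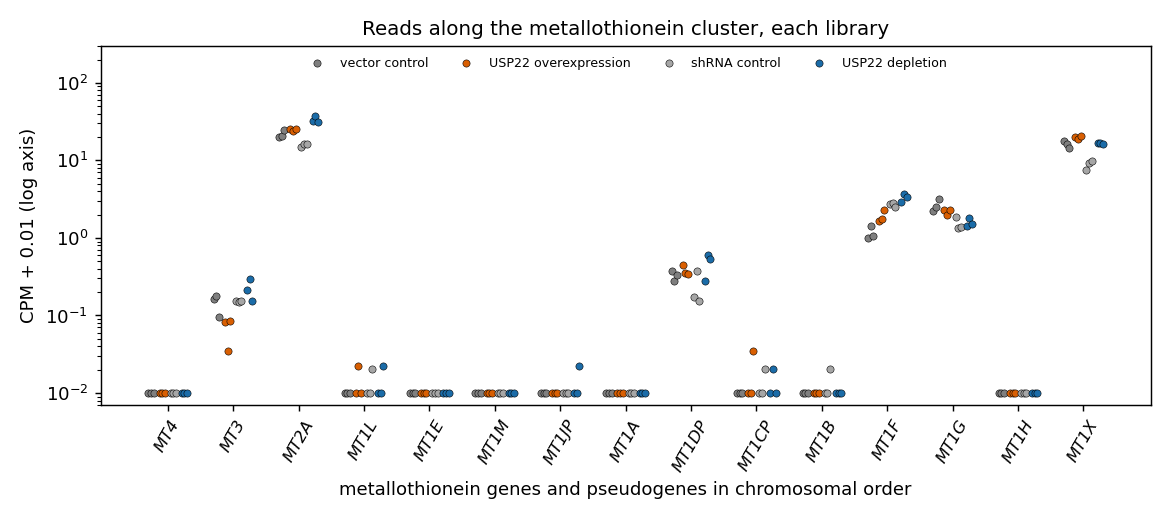
CPM plus 0.01, on a log axis, of the metallothionein genes and pseudogenes in their order along chromosome 16, with 1 point per library and colours for the groups. MT2A, MT1F, MT1G and MT1X carry nearly all reads, and genes with 0 reads lie on the lowest line.

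Among the importers, SLC39A8 (ENSG00000138821), the plasma membrane carrier ZIP8 for zinc, manganese and cadmium, fell on both overexpression and depletion. Its vector control libraries read 129, 125 and 105 CPM, and the overexpression libraries 74.6, 74.5 and 71.6 CPM. The shRNA control read 76.3, 73.7 and 67.0 CPM and the depleted libraries 44.8, 48.4 and 42.4. Neither pair of groups overlapped, and the overexpression libraries lay within the range of the shRNA control. On overexpression SLC39A8 stood at 0.616 of its control (log2 -0.70, SE 0.08, adjusted p = 5.46e-05 by edgeR). On depletion it stood at 0.625 of its own control (log2 -0.68, SE 0.08, adjusted p = 1.71e-05). The difference of these effects was -0.02 (SE 0.11, adjusted p = 0.939), and it does not show that they are equal. The shRNA control was itself at 0.606 of the vector control (log2 -0.72, SE 0.08, adjusted p = 1.8e-06 by edgeR).

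SLC39A7 (ENSG00000112473) fell on depletion. The shRNA control libraries read 136, 138 and 132 CPM and the depleted libraries 98.6, 103 and 92.0, without overlap, at 0.724 of the control (log2 -0.47, SE 0.09, adjusted p = 0.00198 by edgeR). In the vector control the libraries read 138, 145 and 188 CPM, with replicate 3 far above its mates, and after overexpression 125, 125 and 139. These groups overlapped, and log2 -0.28 (SE 0.09) missed the threshold (adjusted p = 0.112 by edgeR). It passed without a filter on low counts (0.00841) and without vector control replicate 1 (0.0333), while without vector control replicate 3 it shrank to -0.13 (adjusted p = 0.179 by edgeR). The overexpression effect minus the depletion effect was 0.19 (SE 0.13, adjusted p = 0.431), and without vector control replicate 3 it was 0.33 (adjusted p = 0.00205 by edgeR).

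SLC39A11 (ENSG00000133195), a less studied member of the ZIP family, fell on depletion from a raised control. The shRNA control read 29.9, 30.3 and 28.5 CPM and the depleted cells 23.6, 24.2 and 23.9. This is 0.808 of the control (log2 -0.31, SE 0.06, adjusted p = 0.00198 by edgeR). The vector control libraries, at 19.5, 19.1 and 20.1 CPM, and the overexpression libraries, at 17, 17.7 and 18.6, lay below both. The last pair did not overlap but missed the threshold at log2 -0.14 (SE 0.06, adjusted p = 0.251 by edgeR).

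SLC39A6 (ENSG00000141424) had the highest level per length and was not called in either USP22 comparison. Its vector control libraries read 312, 311 and 267 CPM, and the overexpression libraries 266, 275 and 272. The shRNA control read 194, 198 and 187 CPM and the depleted cells 183, 197 and 172. Both pairs overlapped, with log2 -0.13 (SE 0.07, adjusted p = 0.317) on overexpression and -0.07 (SE 0.07, adjusted p = 0.538) on depletion, by edgeR. Without vector control replicate 3 the overexpression value was -0.20 with adjusted p = 0.0134. Every one of the 6 shRNA libraries lay below every one of the 6 others, and the controls differed by log2 -0.62 (SE 0.07, adjusted p = 1.58e-06 by edgeR).

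SLC39A1 (ENSG00000143570), ZIP1, is regarded as the main zinc importer of prostate cells. It read 101, 108 and 132 CPM in the vector control and 105, 106 and 112 after overexpression. The shRNA control held 114, 114 and 110.2 CPM and the depleted cells 114, 122 and 104. All 4 groups overlapped, at log2 -0.08 (SE 0.08) on overexpression and 0.01 (SE 0.08) on depletion. By edgeR the adjusted p was 0.64 and 0.964, which does not show that the level is the same. Of its exon bases 60.8% overlap AL358472.7 on the same strand, so reads of the pair may be shared or lost.

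Of the other importers, SLC39A14 (ENSG00000104635), which carries zinc, iron and manganese, read 201, 203 and 210.2 CPM in the vector control, 192, 189 and 192 after overexpression, 175, 170 and 168 in the shRNA control and 180.3, 192 and 180.2 after depletion. Each altered group lay outside the range of its control, below it on overexpression and above it on depletion. The values, log2 -0.10 (SE 0.05, adjusted p = 0.317) and 0.11 (SE 0.05, adjusted p = 0.168), missed the threshold by edgeR. The depletion value passed in 5 of the alternatives, at adjusted p between 0.0258 and 0.0488, and the overexpression value in 0. The difference of the effects, -0.21 (SE 0.07), had adjusted p = 0.0834 by edgeR. That difference passed in 5 of the alternatives, at adjusted p between 0.0115 and 0.0417.
SLC39A3 (ENSG00000141873), a plasma membrane importer, read 36.1, 36.2 and 49.5 CPM in the vector control, 35.5, 36.0 and 37.4 after overexpression, 28.4, 32.3 and 32.5 in the shRNA control and 35.2, 34.7 and 33.7 after depletion. SLC39A9 (ENSG00000029364), an importer of the Golgi and plasma membrane, held 250, 243 and 226 CPM in the vector control, 242, 233 and 237 after overexpression, 212, 213 and 206 in the shRNA control and 198, 215 and 191 after depletion. SLC39A13 (ENSG00000165915), which moves zinc out of vesicles of the secretory pathway, held 9.02, 9.76 and 12.7 CPM in the vector control, 9.21, 8.22 and 9.27 after overexpression, 16.1, 14.8 and 14.5 in the shRNA control and 15.8, 17.3 and 14.4 after depletion. None of these 3 was called in a USP22 comparison. SLC39A10 and SLC39A4, both plasma membrane importers, stood between 65.7 and 104 CPM and between 16.3 and 22.7 CPM over the 12 libraries, and were not called. SLC39A2 and SLC39A5 stayed under 1 CPM in every library.

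**Figure D5:**
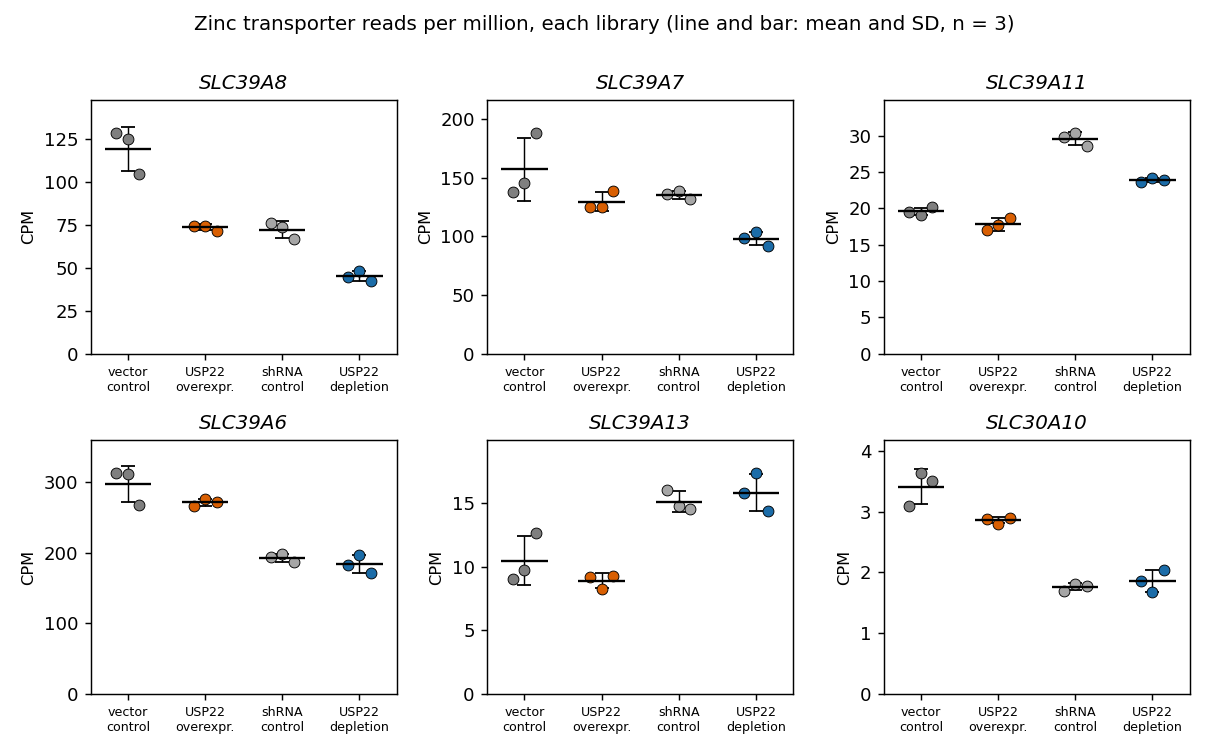
CPM of SLC39A8, SLC39A7, SLC39A11, SLC39A6, SLC39A13 and SLC30A10 in each library. Points are libraries, and lines and bars the mean and SD of 3. SLC39A8 falls on both comparisons, SLC39A6 is lower in all 6 shRNA libraries than in the others, and vector control replicate 3 stands apart for SLC39A7.

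Among the exporters, SLC30A1 (ENSG00000170385), the plasma membrane carrier that removes zinc from the cell and a known MTF1 target, read 60.4, 60.2 and 37.8 CPM in the vector control. The overexpression libraries held 63.3, 74.4 and 69.2 CPM, all above the control. The difference, log2 0.38 (SE 0.13), missed the threshold with adjusted p = 0.118 by edgeR, and passed without a filter on low counts (0.40, adjusted p = 1.06e-05). Without vector control replicate 3, the low library of its group, it shrank to 0.19 (adjusted p = 0.0704 by edgeR). The shRNA control read 62.6, 62.9 and 54.8 CPM and the depleted cells 66.6, 66.0 and 63.8, also without overlap, at log2 0.12 (SE 0.13, adjusted p = 0.579). On depletion SLC30A1 therefore stood at 1.09-fold, where MT2A stood at 2.11-fold.

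SLC30A4 (ENSG00000104154) held 418, 415 and 311 CPM in the vector control, 397, 417 and 409.9 after overexpression, 473, 457 and 435 in the shRNA control and 403, 422 and 395 after depletion. The depleted libraries lay below their control, at log2 -0.16 (SE 0.09, adjusted p = 0.229 by edgeR). SLC30A5 (ENSG00000145740), which loads zinc into the secretory pathway, read 101, 97.3 and 81.8 CPM in the vector control, 94.3, 103 and 98.9 after overexpression, 76.6, 81.5 and 72.7 in the shRNA control and 89.4, 88.4 and 84.1 after depletion. Its depleted libraries lay above their control, at log2 0.18 (SE 0.08, adjusted p = 0.107 by edgeR). Both were called on depletion without vector control replicate 3, SLC30A4 at -0.16 (adjusted p = 0.00444) and SLC30A5 at 0.18 (adjusted p = 0.00387). SLC39A3, SLC39A14 and SLC30A7 made up the other calls gained there, with adjusted p of 0.0213, 0.0378 and 0.0335. With only the libraries compared, SLC30A4 (0.0122), SLC30A5 (0.00521) and SLC39A3 (0.0311) also passed on depletion by edgeR. By voom with sample quality weights they passed at 0.000908, 0.00166 and 0.011. SLC30A5 passed without a filter on low counts as well (0.0329 by edgeR).
SLC30A10 (ENSG00000196660), a manganese exporter in spite of its family, read 3.09, 3.63 and 3.51 CPM in the vector control and 2.89, 2.80 and 2.9 after overexpression. The groups did not overlap, and log2 -0.25 (SE 0.11) missed the threshold (adjusted p = 0.241 by edgeR). The shRNA control held 1.70, 1.81 and 1.78 CPM and the depleted cells 1.86, 1.68 and 2.03. SLC30A6, SLC30A7 and SLC30A9 stood between 52.1 and 219 CPM over all libraries and were not called. SLC30A2 and SLC30A3 stayed under 1 CPM.

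The wider difference lay between the controls, which were not exposed to altered USP22 but differ in vector and doxycycline. Between them 16 of 26 tested members were called (61.5%), 6 higher and 10 lower in the shRNA control, where 43% of all genes were called, 21.7% higher and 21.3% lower. SLC30A had 4 of 9, SLC39A 8 of 13 and the metallothioneins 4 of 4. The median log2 fold change was 0.03 for the members and 0.02 for all genes. Vector, hairpin and doxycycline cannot be told apart here.

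Beside those already given, SLC30A10 was at 0.517 of the vector control (log2 -0.95, SE 0.11, adjusted p = 4.78e-06 by edgeR), and SLC39A11 was 1.51-fold higher (log2 0.60, SE 0.06, adjusted p = 9.75e-07). SLC39A13 was 1.44-fold higher (adjusted p = 0.000999). SLC39A3 (log2 -0.39, adjusted p = 0.00518) and SLC39A14 (log2 -0.26, adjusted p = 0.000629) were lower. SLC30A5 at log2 -0.28, SLC39A9 at -0.19 and SLC30A4 at 0.26 had adjusted p of 0.00655, 0.0162 and 0.0261. Each of these 3 lost its call when only the libraries compared were fitted, at 0.0517, 0.0655 and 0.112. SLC30A5 also lost it without shRNA control replicate 3 (0.0525), and SLC30A4 without shRNA control replicate 1 (0.115) or 2 (0.0849). SLC39A9 lost it without vector control replicate 1 (0.0646), without shRNA control replicate 1 (0.0536) or 3 (0.086), and without a filter on low counts (0.0508), all by edgeR. SLC39A2 (log2 1.67, adjusted p = 0.00127) and SLC30A3 (log2 1.00, adjusted p = 0.014) were also higher, from levels under 1 CPM. SLC30A3 lost its call without vector control replicate 2 (0.0745) or shRNA control replicate 1 (0.0639). The comparisons share samples: the shRNA control is the base of depletion, and the vector control is the base of overexpression and of the difference between controls.

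Other genes of metal handling were counted from lists. MTF1, the zinc-sensing transcription factor, read 43.3 to 46.4 CPM in the vector control, 51.2 to 51.6 after overexpression, 43.9 to 48.4 in the shRNA control and 36.7 to 37.7 after depletion. It fell on depletion, where MT2A and MT1X rose, by log2 -0.29 (SE 0.06, adjusted p = 0.00195 by edgeR). On overexpression the groups did not overlap, at log2 0.20 (SE 0.06, adjusted p = 0.0695), and without vector control replicate 3 it was 0.22 (adjusted p = 0.0059). The difference of the effects was 0.49 (SE 0.08, adjusted p = 0.00113). Of 8 tested genes of zinc sensing and signalling, 2 fell and 0 rose on depletion (median log2 -0.05), where 19.8% of all genes were called. On overexpression 0 were called by edgeR and voom and 1 by DESeq2, with 2 at an unadjusted p under 0.05 (median 0.05). By edgeR 4.11% of all genes were called there. The other that fell was ZNG1A, a chaperone that hands zinc to a methionine aminopeptidase, which fell from 75.9 to 85.7 CPM in the shRNA control to 49.8 to 55.3 CPM (log2 -0.61, SE 0.07, adjusted p = 6.19e-06). Its shRNA control was 1.83-fold above the vector control. ZNG1A has near-identical copies, so its reads may be split.

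Of 10 metal and oxidant response genes outside the families, 2 rose and 1 fell on depletion, with a median log2 fold change of 0.14 and 19.8% of all genes called. SLC7A11, the cystine importer, rose by log2 0.47 (adjusted p = 0.00232), HAMP, the iron hormone hepcidin, by 1.20 from under 1 CPM (adjusted p = 0.0416), and NQO1, a quinone reductase, fell by 0.38 on the log2 scale (adjusted p = 0.000202), all by edgeR. On overexpression 1 fell by edgeR, TXNRD1, a thioredoxin reductase (log2 -0.32, adjusted p = 0.00272), and 0 rose (median -0.02), with 4 at an unadjusted p under 0.05. Of all genes 4.11% were called there by edgeR, 1.51% higher and 2.6% lower. DESeq2 called HMOX1, a heme oxygenase, lower as well (log2 -0.31, adjusted p = 0.0209). Of 15 genes of copper, iron and manganese handling 2 rose and 2 fell on depletion (median 0.0020), again beside 19.8% of all genes. SLC31A1, the copper importer, rose by log2 0.29 (adjusted p = 0.000543), and TFRC, the transferrin receptor, by 0.24 (adjusted p = 0.00458). ATP7A, a copper pump, fell by 0.30 on the log2 scale (adjusted p = 0.0079 by edgeR). On overexpression 0 of the 15 were called by edgeR, DESeq2 or voom, with 3 at an unadjusted p under 0.05 (median -0.05). This again stands beside 4.11% of all genes by edgeR.

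Of 8 genes of citrate metabolism 0 were called by edgeR or voom on either comparison. By edgeR 2 on overexpression and 1 on depletion had an unadjusted p under 0.05. DESeq2 called 2 on overexpression and 0 on depletion, and the medians were -0.08 and 0.0021. By edgeR 4.11% of all genes were called on overexpression and 19.8% on depletion. Of 5 secreted or zinc-binding prostate proteins, 2 fell on both comparisons and 0 rose by edgeR. Of all genes 10.4% were called lower on depletion and 2.6% on overexpression. AZGP1, zinc-alpha-2-glycoprotein, was at log2 -1.53 on depletion (adjusted p = 1.71e-09 by edgeR) and -0.37 on overexpression. ACP3, prostatic acid phosphatase, was at -0.52 and -0.36. On overexpression DESeq2 and voom also called SEMG2, a semenogelin, higher (log2 0.81 and 0.85, adjusted p = 0.0347 and 0.0487). SEMG2 had means of 0.704 CPM in the vector control and 1.24 after overexpression. The shRNA control of AZGP1 was 2.64-fold above the vector control, at 25.9 against 9.78 CPM, and the depleted cells stood at 8.92 CPM. The medians of these 5 were -0.20 and 0.32. Between the controls 43% of all genes were called. There 2 rose and 0 fell of the 8 zinc sensing genes, and 1 and 5 of the 10 response genes. Of the 15 copper, iron and manganese genes 3 rose and 6 fell. Of the 8 citrate genes 2 rose and 3 fell, and of the 5 secreted proteins 2 and 3. Genes of copper and iron handling are given beside the zinc genes since metallothioneins bind copper too. Whether metal content differed between the groups was not tested.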

How the data were processed

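Total RNA of 12 LNCaP libraries was prepared with a stranded kit that keeps transcripts without a poly(A) tail, per the labels' protocols. The authors deposited raw counts of reads in 1 table, over 63677 Ensembl genes. The submitters' processing notes name hg19, STAR 2.5.2a, featureCounts 1.5.0-p3 and DESeq2 1.14.1. Not given in the sources used here are the annotation, the strand setting and how reads that map to several places were counted, which bears on the metallothioneins and on overlapping genes. Symbols were matched by ID for 52181 IDs, 94.9% of tested genes. Lengths and gene types came from GENCODE 29 by ID, and promoters from RefSeq on GRCh38.p14, another build than that of the files, so no coordinates of the files are given.

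Genes passed filterByExpr by group (26076), library sizes were scaled by TMM, and edgeR 4.0.16 in R 4.3.3 (glmQLFit, glmQLFTest) fitted 1 model of the 4 groups, which leaves 8 residual degrees of freedom. Each altered group was set against its own control, the 2 effects against each other, and the shRNA control against the vector control. Benjamini-Hochberg adjustment ran over every tested gene of a contrast, with a threshold of 0.05, and standard errors come from the log2 fold change and its F statistic. CPM use TMM-scaled sizes. With 3 against 3 an exact permutation test could not go below p = 0.1, so none was used. The procedure was tested on simulated data.

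The depth of 77607469 to 103690001 counted reads sets the counting error. Counts of replicate pairs gave a chi-square of 6.77 or more per degree of freedom, above counting noise. Each library was treated as 1 replicate. This spread cannot tell separate cultures from separate preparations of 1 culture. The members and lists were chosen with earlier results of these data known. Values in every library are given for members called in at least 1 comparison with a mean of at least 1 CPM, and for MT2A, SLC30A1, SLC39A1 and SLC39A6. Of each context list at most 3 called genes are named, by smallest adjusted p. Alternatives were RLE scaling, no filter, DESeq2 1.42.0, voom of limma 3.58.1, a filter of 1 CPM in 3 libraries, only the libraries compared, a replicate block, library sizes without the 20 most abundant genes, protein-coding genes alone, and leaving out each library. Voom with sample quality weights was chosen after seeing the data.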

Additional observations from a re-analysis of the deposited data

How the results depend on the processing

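The 5 member calls on depletion, the call of SLC39A8 on overexpression, and those of MT2A and MT1X between the controls and in the difference of effects held in every alternative run, and no called member reversed. Of 68 results (17 members with values in every library, in 4 comparisons), 17 gained a call in at least 1 alternative and 4 lost one: MT1F on overexpression, and SLC30A4, SLC30A5 and SLC39A9 between the controls. On overexpression 1072 of all genes and 2 members were called. Without a filter these were 2062 and 6, with DESeq2 1781 genes, with only the libraries compared 327 and 1, and with voom and sample quality weights 2342 and 4. On depletion, with 5172 genes and 5 members, only the libraries compared gave 8110 and 10, and voom with weights 9613 and 10. In the difference of effects, with 2840 and 2, voom with weights gave 6327 and 7, and no fit of only the libraries compared exists since it needs all 4 groups. Leaving out 1 library gave 501 to 1842 genes and 1 to 4 members on overexpression, 3523 to 8360 and 5 to 10 on depletion, 9514 to 12344 and 13 to 18 between the controls, and 1909 to 5320 and 2 to 4 in the difference. The highest count of genes came each time without vector control replicate 3. Replicate numbers pair the samples by number only: deviations of libraries with the same number correlated at -0.04, 0.19 and 0.22 for overexpression and its control, and at -0.02, 0.12 and 0.12 for depletion, and not every library correlated best with its own number. With the replicate block 1098, 5272, 11308 and 2960 genes and 2, 5, 16 and 2 members were called on overexpression, on depletion, between the controls and in the difference. The cause of these changes was not tested. Depth limits the members under 1 CPM, and the metallothioneins without reads could not be detected at this depth and counting.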

Other observations

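The metallothionein cluster also holds genes and pseudogenes outside the members, which were looked at after their counts had been seen. MT1DP, a transcribed pseudogene between MT1A and MT1B, had 18, 31 and 14 reads in the shRNA control libraries and 26, 58 and 44 in the depleted ones. The groups overlapped, and the log2 fold change of 1.08 (SE 0.37, adjusted p = 0.0489 by edgeR) was called higher. On overexpression it stood at 0.22 (SE 0.37, adjusted p = 0.803), with 29, 22 and 23 reads in the vector control and 37, 28 and 27 after overexpression. MT3, the metallothionein of the brain, had means of 0.136 CPM in the vector control, 0.0568 after overexpression, 0.142 in the shRNA control and 0.212 after depletion, and it was called in none of the 4 comparisons. Without vector control replicate 3 the overexpression effect minus the depletion effect was called (log2 -2.07, adjusted p = 0.0431 by edgeR).

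Of 9 tested genes in the list of neighbours of the cluster, 4 rose and 1 fell on depletion (median log2 0.18). There 9.4% of all genes were called higher and 10.4% lower. The list holds MT3, which lies within the cluster and was not called on depletion or overexpression by edgeR. On overexpression 0 rose and 1 fell by edgeR (median 0.05), where 1.51% of all genes were called higher and 2.6% lower. DESeq2 also called GNAO1, a G protein subunit, higher on overexpression (log2 0.83, adjusted p = 0.0175). GNAO1 had means under 1 CPM, 0.401 in the vector control and 0.717 after overexpression. NUP93, a nuclear pore protein, read 122 to 131 CPM in the shRNA control and 197 to 212 after depletion, a log2 fold change of 0.71 (SE 0.06, adjusted p = 8.88e-07 by edgeR). On overexpression it fell from 418 to 488 CPM to 336 to 346 CPM (log2 -0.38, SE 0.06, adjusted p = 0.00193). It was lower in the shRNA control than in the vector control by log2 -1.82 (SE 0.06, adjusted p = 1.07e-11 by edgeR), in the same direction as MT2A and MT1X. OGFOD1, an oxygenase, rose on depletion by log2 0.18 (adjusted p = 0.0263 by edgeR). SLC12A3, a sodium chloride carrier, rose by 1.10 (adjusted p = 0.039 by edgeR). Its means were under 1 CPM, at 0.194 in the shRNA control and 0.408 after depletion. Whether the cluster and its neighbours respond together was not tested.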
